A study of Homo sapiens with 28 samples.

Results

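N6-methyladenosine (m6A) was mapped by MeRIP-seq on caRNA, the chromatin-associated RNA fraction of a cell, and 4 genes were examined: ERCC6L2, its antisense long noncoding RNA ERCC6L2-AS1, ACER3 and the processed pseudogene RALGAPA1P1. They were chosen by the peak lists themselves, as genes at which a promoter region was listed in every RBFOX2 knockdown (KD) library and in no Control library, at an overlapping place in K562 and in NB4. The 4 genes rested on 3 regions, because ERCC6L2 and ERCC6L2-AS1 share 1. Genes with a promoter region in both lines numbered 5365, of 62663 annotated genes. Presence in KD and absence in Control is therefore the way the genes were picked, and it is given as a description with no test.

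The study asks whether RBFOX2, an RNA-binding protein known as a splicing regulator, takes part in m6A methylation of RNA made at promoters. Peak lists of 14 m6A immunoprecipitation (IP) libraries were used, from 3 human lines: K562, derived from chronic myelogenous leukaemia, NB4, from acute promyelocytic leukaemia, and HepG2, from a liver tumour. The groups were HepG2 WT and K562 WT (2 libraries each, no hairpin named), K562 Control and K562 RBFOX2 KD (2 each), and NB4 Control and NB4 RBFOX2 KD (3 each). Control cells carried a non-targeting short hairpin and KD cells a hairpin against RBFOX2, both delivered by lentivirus. The study's methods call the MeRIP-seq replicates biological, and the labels number them without naming separate cultures.

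ERCC6L2 encodes a helicase-like protein of the SNF2 family that is linked to the DNA damage response and, when lost, to inherited bone marrow failure. ERCC6L2-AS1 is transcribed the other way from the same promoter area. ACER3 encodes an alkaline ceramidase, which splits ceramide into sphingosine and a fatty acid. RALGAPA1P1 is a processed copy of RALGAPA1, a subunit of a complex that switches off the Ral GTPases. In MeRIP-seq a peak is a place where an m6A antibody pulled down more RNA fragments than the local background, so a peak reports enriched RNA and depends on both the m6A and the amount of that RNA.

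Lists held 22700 to 44088 peaks each, on effective depths of 10.8 to 32.9 M reads recovered from the peak values. Of 8 erythroid markers, 7 to 8 had a peak on their own strand in K562 and 1 to 3 in NB4. Of 8 promyelocytic markers, 6 to 7 did in NB4 and 1 to 3 in K562, and of 8 hepatocyte markers 3 to 6 did in HepG2 and 0 to 1 elsewhere. RBFOX2 itself had 1 to 3 peaks in each Control and KD library, and as peaks are not transcript levels they give no check of the knockdown.

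Sequence under the ERCC6L2-AS1 and ACER3 regions is shown first, since they differ in it (hg38, read 5′ to 3′ on the strand of the peak, around the median KD summit or, for ERCC6L2-AS1, around the consensus nearest to it, with capitals for the m6A consensus). That consensus is any base but C, then a purine, then AC, then any base but G.
ERCC6L2-AS1 and ERCC6L2, chr9:95875835-95875863, minus strand: tagcgactaaggGGACCcaagcagaacgg
ACER3, chr11:77017180-77017330, plus strand: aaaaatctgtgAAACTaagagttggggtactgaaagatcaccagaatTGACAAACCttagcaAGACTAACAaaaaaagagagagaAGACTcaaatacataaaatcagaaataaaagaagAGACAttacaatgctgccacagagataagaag

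The ERCC6L2-AS1 stretch is short because the region lies over the 5′ UTR of ERCC6L2 on the other strand. Its 151-base summit window held 1 match to the consensus and was 67.5% GC. The RALGAPA1P1 window held 8 matches at 38.4% GC, and the ACER3 window 7 at 33.8% GC. A match was common, as 96.7% of the 188543 summit windows of the 5 KD lists held at least 1. None of the 3 windows held GGACT on the strand of the peak, which 25.3% of all KD windows did. The same was true of TGCATG, the DNA spelling of the canonical RBFOX2 motif, held by 3.60% of KD windows. It was true as well of AGATG, a motif the study connects with RBFOX2, held by 23.3%. RefSeq promoters (GRCh38.p14) were at hand for ERCC6L2, ERCC6L2-AS1 and ACER3. The promoter of ERCC6L2-AS1 held TGCATG with its first base 33 bases before the start, and 9.46% of 35116 RefSeq promoters hold it on either strand.

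The letters of the RALGAPA1P1 region recur in the genome. A 20-base word of its summit window occurred a median of 34.5 times in hg38, against 1 for the windows of ERCC6L2-AS1 and ACER3. By BLAST, 25838 other places matched at least 80% of the RALGAPA1P1 region, and the closest of the places that matched at least 50% was 94.6% identical. For ACER3 the number was 2633, and the closest was 77.0% identical. The ERCC6L2-AS1 region had 0 matches elsewhere. Reads from close copies, as at RALGAPA1P1, can align at either place. How the authors treated reads with several alignments was not given in the sources used here. The part of such reads in the peaks was not tested.

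ERCC6L2-AS1 and ERCC6L2 shared a region on the minus strand of chromosome 9, at 95875777 to 95875987 in K562 and 95875737 to 95875994 in NB4. The median KD summit lay 390 bases before the start of the canonical ERCC6L2-AS1 transcript, in an exon of other transcripts of that gene, and 179 bases after the canonical ERCC6L2 start on the opposite strand. In K562 KD 1 and 2 the fold over background at the summit was 4.78 and 4.21. In NB4 KD 1 to 3 it was 5.25, 5.28 and 4.95.

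The strength of a peak within its list was read as the percentile of -log10 q, from 0 for the weakest to 100 for the strongest. The ERCC6L2-AS1 region stood at percentiles 17.6 and 5.94 in K562 KD and at 38.2, 34.4 and 27.4 in NB4 KD. By this rank it was a weak peak in K562 KD and below the middle of the list in NB4 KD. By fold, its percentiles in NB4 KD 1 to 3 were 52.7, 50.4 and 41.7, near the middle. On both measures it ranked lower in both K562 KD lists than in any NB4 KD list. Neither K562 Control list nor any of the 3 NB4 Control lists held a minus-strand peak nearer to it than 358903 bases.

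WT lists, which the choice of genes did not use, held the same region in K562 and much more strongly. Its fold was 11.3 in K562 WT 1 and 11.8 in K562 WT 2, at percentiles 77.5 and 78.9. Scaled to 10 M reads, 68.0 and 71.1 reads lay over the summit in K562 WT, against 29.2 and 26.2 in K562 KD. At the genome-wide background, a K562 Control peak would have been listed from 14.8 (replicate 1) and 13.8 (replicate 2) on the same scale. In K562, WT thus stood above KD. Control was not listed and has only that limit, which would be higher if the local background were higher. HepG2 WT lists held no peak at the region and had one 393 to 395 bases away on the same strand.

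**Figure D1:**
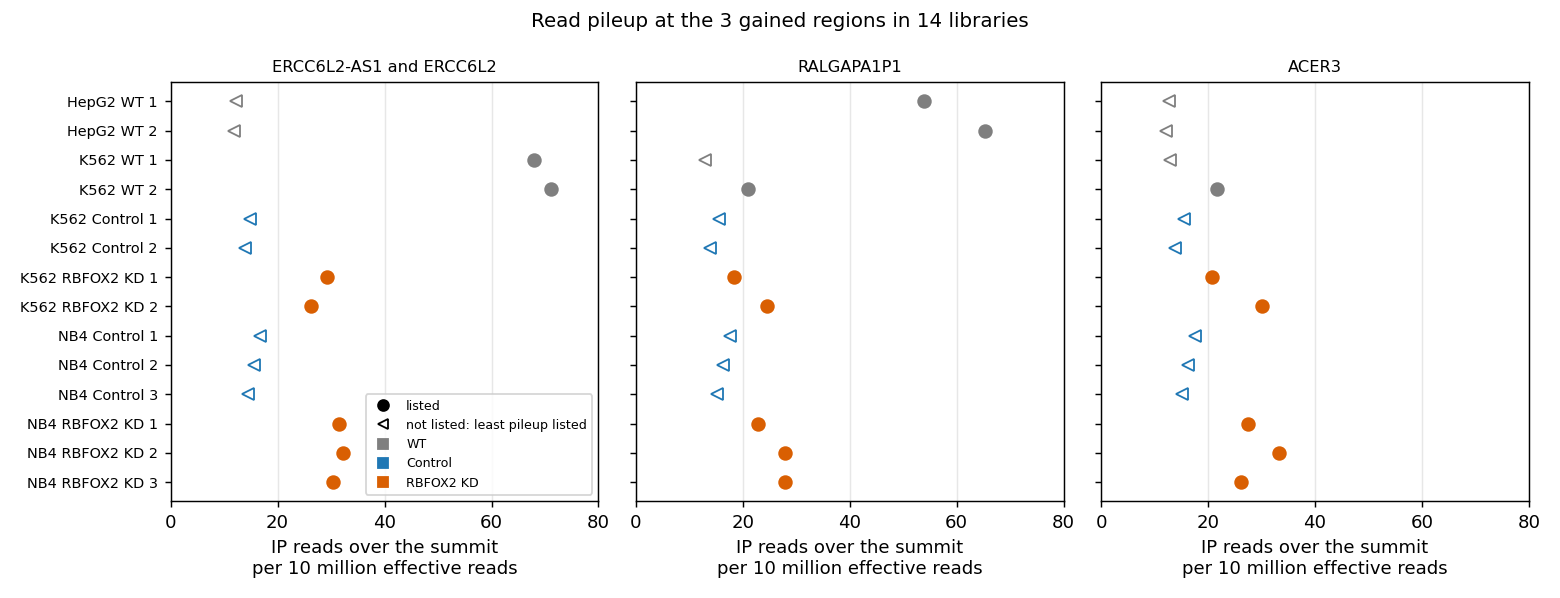
Reads over the summit of the 3 gained regions, per 10 M effective reads (x axis), in each of 14 libraries (rows). Filled circles are listed peaks that overlap the region, each at its own summit. For RALGAPA1P1 the HepG2 WT circles, at 53.9 and 65.3, belong to a wider peak whose summit lies outside the region. Open triangles give the least pileup that would have been listed, at the genome-wide background, in a library without a peak. The KD libraries sit between 18.3 and 33.3, every Control library holds only a triangle, and the K562 WT circles for ERCC6L2-AS1 lie at 68.0 and 71.1.

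RALGAPA1P1 had its region 818 bases before its start, on the gene strand (chromosome 9, 105519163 to 105519428 in K562 and 105519188 to 105519425 in NB4). The pseudogene lies inside FSD1L on the same strand, and the region fell in an FSD1L intron, so RNA of the 2 genes cannot be told apart there. The fold was 2.90 and 3.78 in K562 KD and 3.67, 4.43 and 4.41 in NB4 KD. Scaled to 10 M reads, 18.3 and 24.6 reads lay over the summit in K562 KD and 22.9, 27.9 and 28.0 in NB4 KD. At the genome-wide background, peaks would have been listed from 15.5 and 13.8 in K562 Control and 17.6, 16.3 and 15.1 in NB4 Control. Control values just under these limits would not have been listed, so the gap to the lowest KD values may be small. Percentiles were 0.731 and 3.65 in K562 KD and 10.1, 20.7 and 19.3 in NB4 KD. In K562 KD this was among the weakest peaks of the lists.

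K562 WT 2 held the RALGAPA1P1 region at a fold of 3.39 and percentile 8.24, and K562 WT 1 did not list it. Both HepG2 WT lists covered it with a peak of 2526 and 2581 bases whose summit lay further upstream, at percentiles 96.3 and 92.4. Control lists had plus-strand peaks close by: the nearest ended or began 336 bases away in K562 Control 1, 925 in K562 Control 2, and 1109, 236 and 238 in NB4 Control 1 to 3. FSD1L therefore carried plus-strand peaks close to the region in Control cells too.

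ACER3 had its region deep in the gene, 156 kb after the canonical start, in an intron on the gene strand (chromosome 11, 77017118 to 77017314 in K562 and 77017003 to 77017321 in NB4). It counted as a promoter region through 1 of 35 annotated transcripts, the retained-intron transcript ACER3-224, whose start lies 787 bases after the median KD summit. The fold was 3.27 and 4.61 in K562 KD and 4.40, 5.26 and 4.13 in NB4 KD. Scaled to 10 M reads, 20.7 and 30.2 reads lay over the summit in K562 KD and 27.5, 33.3 and 26.2 in NB4 KD. Control peaks would have been listed from the same limits as at RALGAPA1P1, 15.5 and 13.8 in K562 and 17.6, 16.3 and 15.1 in NB4. Percentiles were 2.11 and 11.7 in K562 KD and 24.4, 35.4 and 14.1 in NB4 KD. K562 WT 2 held it too, at a fold of 3.52 and percentile 10.1, while K562 WT 1 and both HepG2 WT lists did not.

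All 3 regions were thus listed in at least 1 K562 WT library. Ranked within lists of equal length, only the ERCC6L2-AS1 and ERCC6L2 region still met the rule in both lines, and of the 4 genes the same 2 met it with a promoter window of 500 bases to either side.

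Gained promoter regions were few over all genes. In K562 98 of 9884 promoter regions were gained (0.992%) and in NB4 209 of 11271 (1.85%). Genes gained at an overlapping place in both lines numbered 5 of 5365 (0.0932%): the 4 described here and GPT on chromosome 8. Every gene with a transcript start in reach was counted alike, and GPT was not among the genes chosen. At places that did not overlap, ATOSA, NDUFB2, PPP1R16A and RPTOR were gained in both lines and PIEZO1, RTEL1-TNFRSF6B and TBC1D9B lost in both, where lost means listed in every Control and in no KD library. Of all promoter regions, 2.25% in K562 and 0.719% in NB4 were lost. The balance in NB4 depended on list length. Full lists gave 209 promoter regions gained and 81 lost there, and lists of equal length gave 100 gained and 182 lost. In K562 more were lost than gained either way, 222 against 98 and 201 against 96. Just outside the rule lay 12 promoter regions that missed it by 1 library. Of these, 7 were listed in 1 Control library as well, at percentiles from 11.3 (FUCA2) to 68.7 (RBM33), and 5 lacked 1 KD library, among them TRIM25 and SUPT16H.

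Repeated sequence was more frequent among gained regions than among all regions. A summit window was called repeated where its median 20-base word occurred at least 10 times in hg38. In K562, 840 of 47629 regions were gained (1.76%), and 48.2% of them were repeated against 17.8% of all. In NB4, 1937 of 52807 were gained (3.67%), and 22.9% of them were repeated against 11.5% of all. At promoters the shares were small: 3.06% of gained against 3.15% of all promoter regions in K562, and 6.22% against 2.52% in NB4. RALGAPA1P1 was on the repeated side of this line, and ERCC6L2-AS1 and ACER3 were not. These shares are descriptions with no test.

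**Figure D2:**
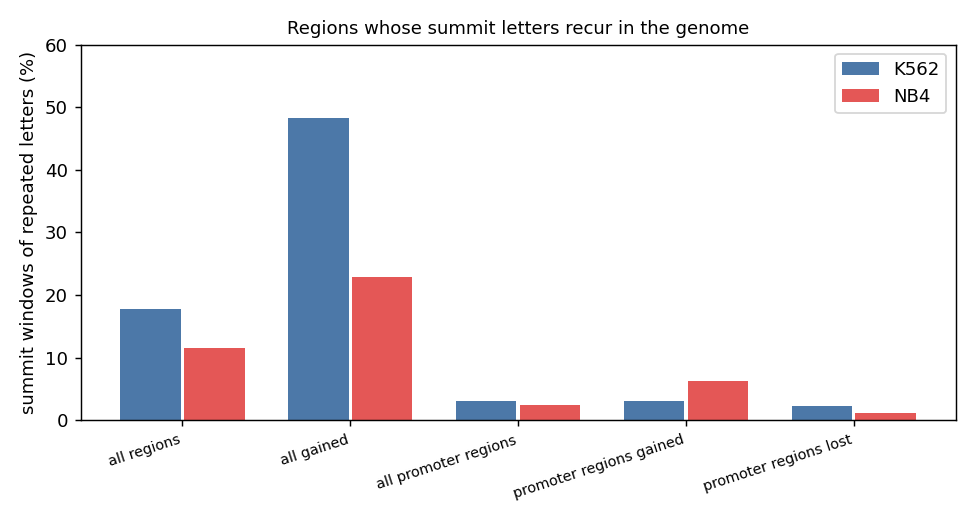
Percent of summit windows (y axis) whose median 20-base word occurs at least 10 times in hg38, for 5 sets of regions (x axis) in K562 and NB4 (bars). Gained regions stand at 48.2% in K562 and 22.9% in NB4, above the 17.8% and 11.5% of all regions, while promoter sets stay at or under 6.22%.

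Beyond the gained region, ERCC6L2 carried 4 plus-strand regions that all 14 lists held. They lay in a coding exon at 95880750 to 95881296 (median percentile 92.3), in an intron at 95897718 to 95897932 (56.6), and in exons at 95971877 to 95973234 (91.9) and 96012273 to 96013239 (94.1). The gene's main m6A regions were therefore present in Control and KD alike. A further region in an intron, at 95948832 to 95949123, was listed in the 3 NB4 KD libraries only, at percentiles 59.1, 50.4 and 20.9. Another at 95997065 to 95997367 was listed in 3 NB4 KD and 0 NB4 Control libraries, but also in all 6 K562 libraries and in HepG2 WT 2. An intron region at 95959261 to 95959791 was found in all 6 K562 lists and nowhere else, at percentiles 68.6 to 86.5, and a 20-base word of its window occurred a median of 10128.5 times in hg38.

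ERCC6L2-AS1 had few other peaks. Its gene strand held 4 regions over the 14 lists, the gained one among them. The region at 95869817 to 95870091 was in both HepG2 WT and both K562 WT lists, and the region at 95871391 to 95871560 in both K562 WT lists and K562 KD 2. The last, at 95813658 to 95813807, was in NB4 KD 3 alone.

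ACER3 had a region near its start, 76860909 to 76861308, with a median summit in an intron, in 13 of 14 lists, all but HepG2 WT 1. Its percentile was 77.8, 77.4 and 75.9 in NB4 Control and 48.5, 88.4 and 60.1 in NB4 KD, so the NB4 groups overlapped. In K562 it was 4.54 and 13.3 in Control, 18.5 and 27.6 in KD, and 72.0 and 65.4 in WT. By this rank K562 WT stood above both hairpin groups, and KD above Control. At ERCC6L2-AS1 K562 WT also stood above KD, but Control was not listed there and has no rank. Farther in, 5 intron regions were listed in 3 or more K562 libraries and in no other line, and the windows of all 5 were repeated, with a median word count of 70.0 to 9660.5.

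RALGAPA1P1 had regions over its body in K562 Control and KD and in HepG2 WT. The region at 105524777 to 105525209 was listed in 8 libraries: both K562 Control, both K562 KD, both HepG2 WT and NB4 KD 1 and 3. The 6232 bases of the pseudogene matched the exons of RALGAPA1 over 98.0% of their length at 99.4% identity, so reads of the parent on chromosome 14 and of the pseudogene may be exchanged, and these body peaks are uncertain.

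**Figure D3:**
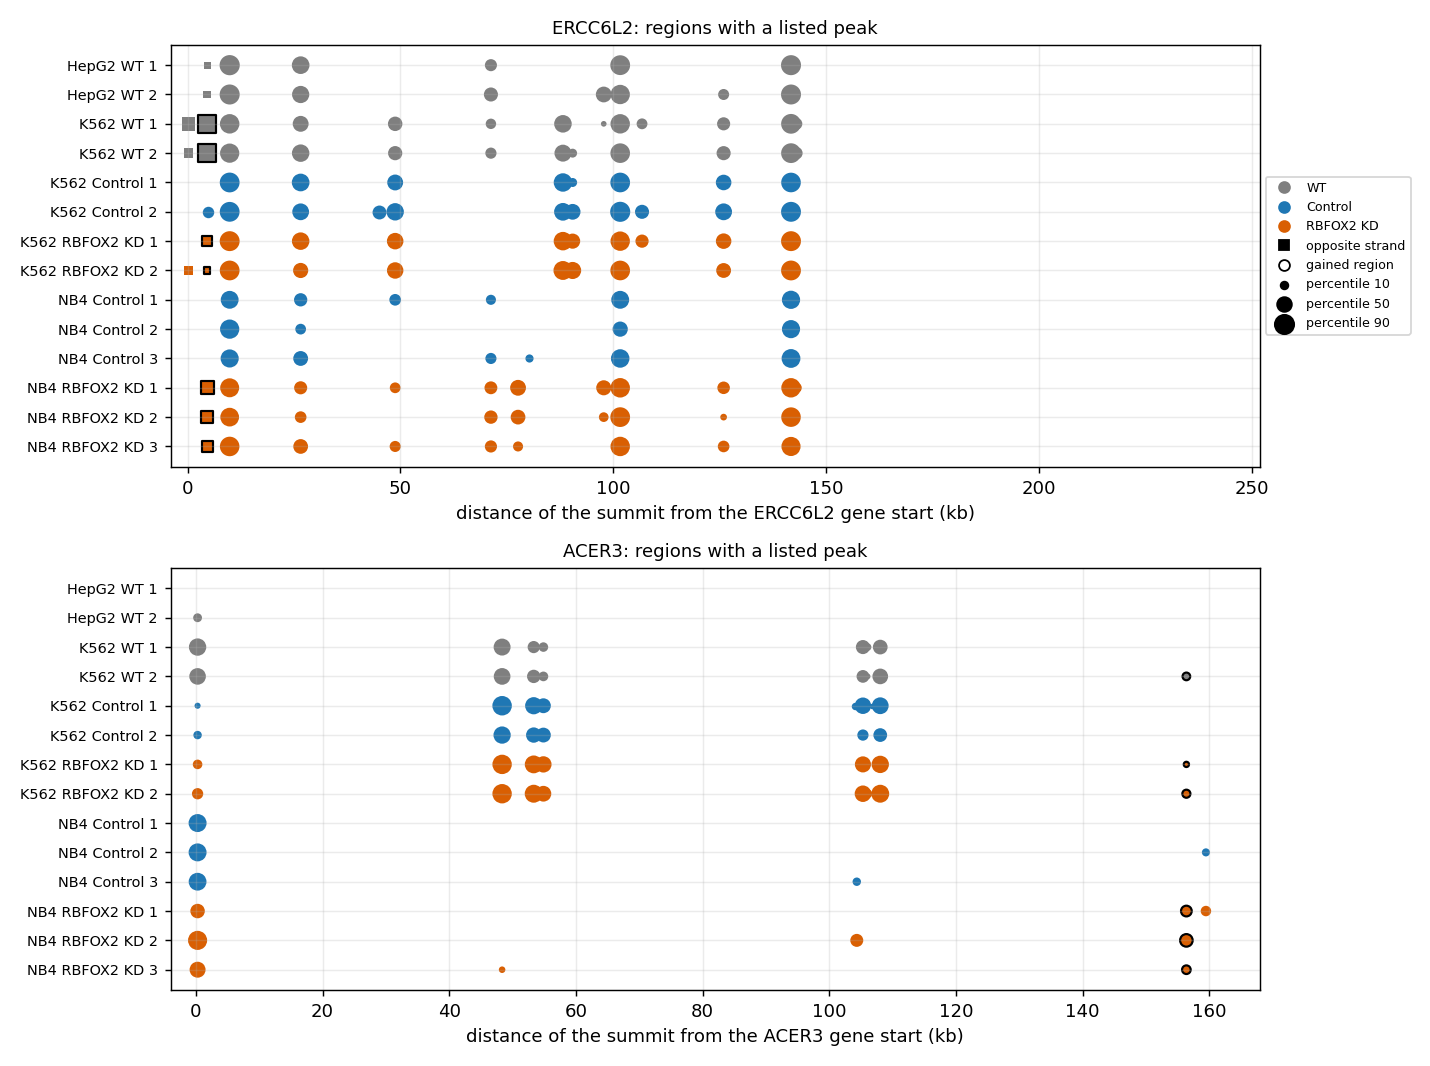
Listed peaks along ERCC6L2 and ACER3 (x axis, distance of the summit from the gene start in kb) in 14 libraries (rows); the area of a mark grows with the percentile of -log10 q, squares are on the opposite strand and outlined marks are the gained regions. The 4 ERCC6L2 columns filled in every row are the constant regions, and the ACER3 marks between 48.3 and 108 kb are nearly all in K562 rows.

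Counts of peaks per gene were compared between K562 WT and HepG2 WT. The choice of genes did not use these lists, but it required a peak in K562 KD and asked nothing of HepG2. The counts also include the gained regions. ACER3 had 8 and 11 gene-strand peaks in K562 WT and 0 and 1 in HepG2 WT, a difference of 9 peaks. ERCC6L2 had 11 and 10 against 6 and 7 on its strand, and ERCC6L2-AS1 4 and 3 against 2 and 2. Both K562 WT counts of ERCC6L2-AS1 include its gained region, and the gap to HepG2 WT there depends on it. RALGAPA1P1 went the other way, with 0 and 1 against 2 and 4. The groups did not overlap in these 4 genes, but with 2 libraries each an exact permutation test (two-sided) cannot go below p = 0.333 (adjusted p = 0.444 over 8 comparisons), so no difference could pass. HepG2 WT lists were also shorter, at 22700 and 27438 peaks against 44088 and 43403. With lists of equal length the gene-strand difference went from 9 to 3 peaks for ACER3 and from 1.5 to 0 for ERCC6L2-AS1. It went from 4 to -1.5 for ERCC6L2 and stayed at -2.5 for RALGAPA1P1.

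Outside the 3 regions, the genes held 20 and 22 peaks in K562 Control and 20 and 19 in K562 KD, which overlapped. In NB4 they held 8, 6 and 8 in Control and 13, 10 and 13 in KD, which did not. NB4 KD lists had 36777 to 39803 peaks and NB4 Control lists 29609 to 33497. Relative to list length the NB4 groups overlapped, with Control 1 above KD 2. On that measure both K562 KD libraries stood below both K562 Control libraries. With lists of equal length the NB4 difference went from 4.67 to 2 peaks. This is the contrast that chose the genes and was not tested.

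**Figure D4:**
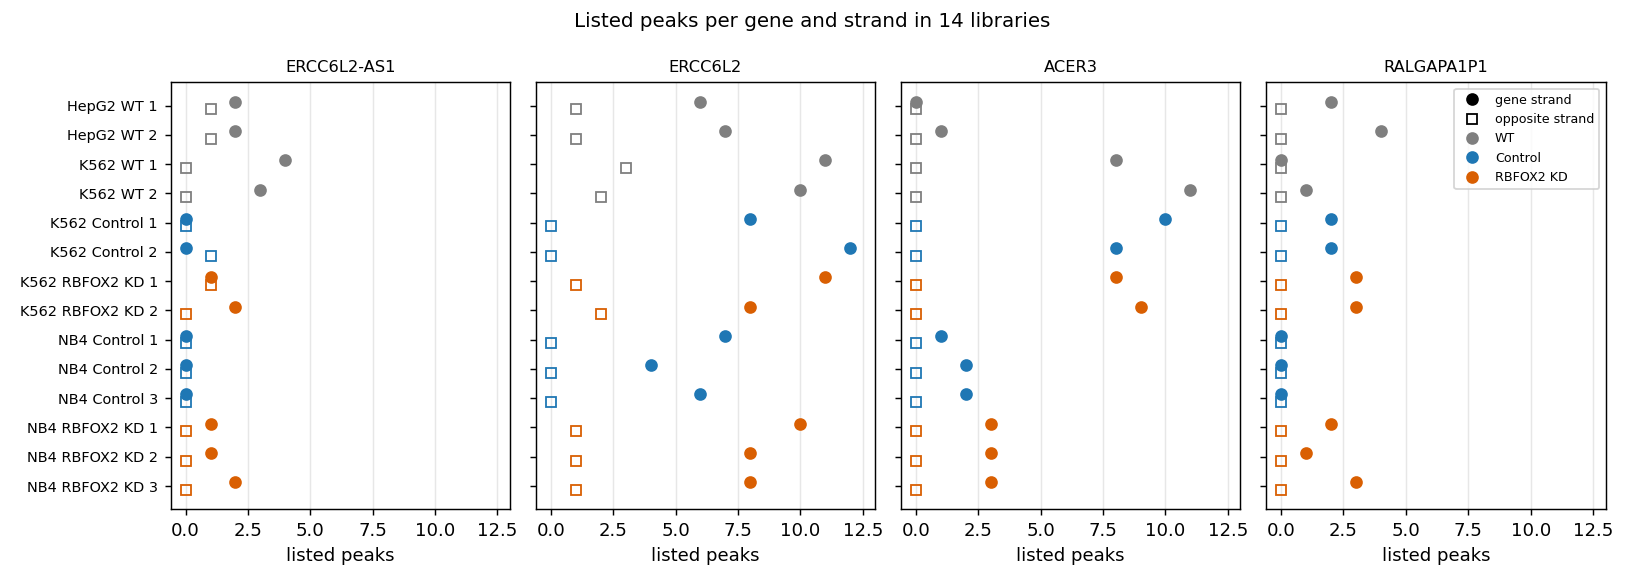
Number of listed peaks per gene (x axis) on the gene strand (filled circles) and the opposite strand (open squares) in 14 libraries (rows). ERCC6L2 has 4 to 12 gene-strand peaks in every library, and ACER3 has 8 to 11 in K562 against 0 to 3 elsewhere.

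Related genes were counted as lists. Of 22 SNF2 helicase and excision repair genes, 14 had a promoter region in K562 and 12 in NB4. Among these ERCC5, an endonuclease of nucleotide excision repair, was gained in K562, and SHPRH, a helicase and ubiquitin ligase, was gained in NB4, with 0 lost in either. Of 30 genes of ceramide and sphingosine metabolism, 10 and 9 had one, and of 12 Ral GTPases and regulators 6 and 7 had one, with 0 gained and 0 lost in both lines. Over all genes with a promoter region, 1.53% were gained and 3.38% lost in K562, and 2.86% gained and 1.15% lost in NB4.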

How the data were processed

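The authors trimmed reads with Trimmomatic 0.39, aligned them to hg38 with HISAT2 2.1.0, separated strands with SAMtools 1.9 and called m6A peaks with MACS2 for each library and strand, per the submitters' processing notes and the methods. Each of the 14 deposited lists gives a score, a fold (ratio) over the local background at the summit and -log10 p and -log10 q values, with no read counts. The 14 input samples were not analysed here.

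Lists were restricted to the autosomes, X and Y and annotated with GENCODE 44. Peaks of a line that overlapped by 1 base on 1 strand were merged. A summit from 1000 bases upstream to 100 downstream of a transcript start, on either strand, made a promoter region. Pileup and depth were solved from fold and p (whole within 0.05 for nearly all peaks in 11 libraries, and not in HepG2 WT 1 and 2 and NB4 Control 3, whose reads appear rescaled). Repeated letters were found by 20-base word counts and BLAST 2.17.0 (E-value 1e-10). Python 3.11.15, numpy 2.4.6, pandas 2.3.3 and scipy 1.17.1 were used, and the functions were tested on simulated data. The genes, related lists and comparisons were chosen with earlier results of these data known. Genes named were the members, list genes gained or lost, genes changed alike in both lines and examples just outside the rule. The count of repeated words and the copies were added after the data were seen. The sequence under the RALGAPA1P1 region is not reported here.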

Additional observations from a re-analysis of the deposited data

How the results depend on the processing

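The lists hold called peaks only, so a place without a peak has an upper limit and no value, and depth limits what can be listed. All 4 genes met the rule with a stricter threshold, with summit merging and with depth matching. The stricter threshold, -log10 q of at least 3, could not change this. The lowest KD value of the 3 regions was 4.79, for RALGAPA1P1 in K562 KD 1. Leaving out 1 library also gave 4 each time, which the choice of the genes fixes and which shows no stability. With lists of equal size it was 2, and with a promoter window of 500 bases to either side 2. The number over all genes, 5, was 10 with summits merged within 150 bases, 2 with equal list size and 3 with the 500-base window, and ranged from 5 to 9 when 1 library was left out (9 without K562 KD 2, and 8 without K562 Control 1, K562 Control 2 or NB4 KD 1). Peaks outside the gained regions, KD minus Control, moved in NB4 from 4.67 to 2 with equal list size. Promoter regions gained and lost in NB4 turned from 209 and 81 to 100 and 182 with equal list size. By fold in place of -log10 q, the mean NB4 KD percentile was 48.3 for ERCC6L2-AS1, 29.1 for RALGAPA1P1 and 37.6 for ACER3. K562 WT minus HepG2 WT for ERCC6L2 on its strand turned from 4 to -1.5 peaks with equal list size. For ACER3 it went from 9 to 3 and for ERCC6L2-AS1 from 1.5 to 0, while for RALGAPA1P1 it stayed at -2.5. Replicate numbers did not pair the WT libraries (r = -0.021 over 1-megabase bins, across bins and not samples). With the replicate block the differences in peaks were as without it, for example 9 for ACER3 on its strand, at the smallest exact permutation p that 2 pairs allow, 0.5.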

Other observations

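Plus-strand peaks at the shared promoter of ERCC6L2 and ERCC6L2-AS1 were listed once each, in K562 Control 2 and in K562 KD 1, at places that did not overlap.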
